A study of Homo sapiens with 4 samples.

Results

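MALAT1, NEAT1, NORAD, TUG1, OIP5-AS1, KCNQ1OT1, H19, MIR205HG and MIR22HG are long noncoding RNAs (lncRNAs), and their expression was examined in HaCaT cells after knockdown of ALKBH5, an enzyme that removes the N6-methyladenosine (m6A) mark from RNA. The 9 genes were taken by name from deposited tables that list 58735 genes, and each name matched 1 row. HaCaT (HaCAT in the labels) is an established line of human keratinocytes. The control cells, labelled WT, received negative control siRNA (siControl), the knockdown cells received ALKBH5 siRNA (siALKBH5), and both groups were transfected with 200 pmol of siRNA and sequenced as 2 libraries each, numbered replicate 1 and 2. RNA was selected on poly-T beads, so the libraries hold mainly polyadenylated RNA. Nothing in the labels says that the duplicates came from separate cultures, so the p-values below measure the spread between these libraries, which may be technical. Levels are given as CPM, the usual unit of read counts relative to the library total, with totals scaled by TMM over all genes. In bulk RNA, fewer cells that make a transcript and less of it per cell cannot be told apart. Differences are given as log2 fold changes of siALKBH5 against siControl with the standard error (SE) and the adjusted p of edgeR's quasi-likelihood test over all tested genes, and "called" means an adjusted p under 0.05.

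The libraries held between 16017502 and 18837807 counts, and the 9 lncRNAs took 0.232% and 0.234% of the siControl counts and 0.180% and 0.182% of the siALKBH5 counts. ALKBH5, the target of the siRNA, had counts of 1512 and 1576 (siControl) against 956 and 816 (siALKBH5) (log2 fold change -0.85, SE 0.053, adjusted p = 6.4e-15 by edgeR). Keratinocyte markers were abundant, with a summed level of the 8 markers between 16542 and 22367 CPM. Their sum was higher in both siALKBH5 libraries (4 markers called higher, 3 called lower), and the part of this shift in the results below was not tested. Markers of other cells were low. The 4 leukocyte markers summed to at most 0.333 CPM with MS4A1 at 0 counts, the 4 melanocyte markers to at most 3.88 CPM with TYR at 0 counts, and the 6 fibroblast markers lay between 18.7 and 22.8 CPM with COL1A2 and PDGFRA at 0 counts. Of the fibroblast markers, 3 were tested and DCN and LUM, with between 15 and 71 counts, were called lower. COL1A1, with counts of 268 and 309 (siControl) against 310 and 267 (siALKBH5), was not called (log2 fold change -0.043, adjusted p = 0.79 by edgeR). Beside these calls and those of the keratinocyte markers, 17.3% of all tested genes were called lower and 19.3% higher.

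LncRNAs are transcripts that are processed much like mRNA but are not translated into a known protein, and many act where they are made or kept. MALAT1 is a nuclear RNA of the speckles, which store splicing factors, and its end is made by RNase P cleavage and folds into a triple helix in place of a poly(A) tail. NEAT1 is the scaffold of paraspeckles, nuclear bodies built on its long form, whereas its short form is polyadenylated. NORAD is a cytoplasmic RNA that binds Pumilio proteins, repressors of mRNA, at many copies of their recognition element. MIR205HG, MIR22HG and H19 are host genes of microRNAs, of which miR-205 is known as an epithelial microRNA of the skin. KCNQ1OT1 and H19 are imprinted lncRNAs of the 11p15.5 region, each expressed from 1 parental copy. MALAT1 and other lncRNAs of this kind are known to carry m6A.

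The mature microRNAs of the host genes are shown because their hosts include both MIR205HG and MIR22HG, which fell after knockdown. The sequences are those of RefSeq (GRCh38.p14), 5′ to 3′, with the seed (bases 2 to 8) in capitals. All 6 seeds differ.
hsa-miR-205-5p: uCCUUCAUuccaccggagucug
hsa-miR-205-3p: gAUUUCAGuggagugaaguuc
hsa-miR-22-5p: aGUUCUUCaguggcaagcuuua
hsa-miR-22-3p: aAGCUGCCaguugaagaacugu
hsa-miR-675-5p: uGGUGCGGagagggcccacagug
hsa-miR-675-3p: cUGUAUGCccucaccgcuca

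The miR-22 arms lie on the minus strand of chromosome 17 at chr17:1713952-1713973 (5p) and chr17:1713914-1713935 (3p), within an exon of all 19 annotated transcripts of MIR22HG. The miR-205 arms lie on the plus strand of chromosome 1 at chr1:209432166-209432187 (5p) and chr1:209432203-209432223 (3p). The exons of MIR205HG cover 20 bases of the 3p arm and 0 bases of the 5p arm, and 0 of its 10 transcripts hold either arm whole in an exon. The miR-675 arms lie on the minus strand of chromosome 11 at chr11:1996800-1996822 (5p) and chr11:1996768-1996787 (3p), in an exon of 4 of the 12 transcripts of H19. Mature microRNAs themselves were not measured in these libraries.

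The motif TGTANATA, the core of the Pumilio recognition element, was searched on the sense strand of the longest GENCODE 29 transcript of each tested gene. NORAD held 15 matches in 5339 bases, or 2.81 per kilobase, and 3 of the 13832 tested transcripts of at least 1 kilobase held more per kilobase. Among 3933 tested transcripts within 25% of its length, 42.7% held at least 1 match. NEAT1 held 6 matches, TUG1 2, OIP5-AS1 1 and KCNQ1OT1 9, and MALAT1, H19, MIR205HG and MIR22HG held 0. The first 4 sites of NORAD are shown with 8 bases on each side and the motif in capitals, on the minus strand of chromosome 20 of GRCh38, in the single exon of NORAD.
NORAD site 1 (chr20:36050185-36050208): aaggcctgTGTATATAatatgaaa
NORAD site 2 (chr20:36049806-36049829): cactactgTGTATATAgttgacaa
NORAD site 3 (chr20:36049705-36049728): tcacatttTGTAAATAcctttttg
NORAD site 4 (chr20:36049504-36049527): cttatctgTGTATATAgtgtacat

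GGACT, a sequence in which m6A is often found, was searched in the same way because ALKBH5 acts on this mark. MALAT1 held 13 matches (1.49 per kilobase), NEAT1 19 (0.835), NORAD 2 (0.375), TUG1 7 (0.937), OIP5-AS1 7 (0.793), KCNQ1OT1 79 (0.862), H19 2 (0.852), MIR205HG 4 (1.19) and MIR22HG 0, against a median of 0.924 per kilobase over the 13832 transcripts. Of tested transcripts within 25% of the length of MIR22HG, 91.8% held at least 1 match, and of those within 25% of the length of MALAT1, 99.9% did. A match is a stretch of letters, and methylation was not measured here. The first match of MALAT1, which was not called, and of NEAT1 and MIR205HG, which fell, is shown with the motif in capitals, read from the plus strand (GRCh38) and in exon 1 of each transcript.
MALAT1 site 1 (chr11:65498545-65498565): aagtcgcaGGACTgcaagcag
NEAT1 site 1 (chr11:65423558-65423578): acaggcggGGACTgcgaggca
MIR205HG site 1 (chr1:209429120-209429140): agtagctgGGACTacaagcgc

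The study lists 2 siRNAs to ALKBH5, and the labels do not say which of them was used for these libraries. Their antisense strands, without the overhang of deoxythymidines and with the seed (bases 2 to 8) in capitals, are shown so that the lncRNAs can be read against them.
ALKBH5-si1: uCGCCGAAgaaguacuugu
ALKBH5-si2: uAGUCGUUgaugacggcgc

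The site of the first seed, TTCGGCG, was found 4 times in the 91667 bases of KCNQ1OT1 and in none of the other 8 transcripts. These are 0.0436 per kilobase, and 680 of the 13832 tested transcripts of at least 1 kilobase held more per kilobase. Only 1 other tested transcript lay within 25% of the length of KCNQ1OT1, too few for a share. The site of the second seed, AACGACT, was found 1 time each in MALAT1, NEAT1, TUG1 and KCNQ1OT1. Such a site was held by 10.6% of tested transcripts within 25% of the length of MALAT1, 27.8% of those near NEAT1 and 9.66% of those near TUG1. NORAD, OIP5-AS1, H19, MIR205HG and MIR22HG held neither.

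Of the RNAs of nuclear bodies, NEAT1 was called lower and MALAT1 was not called. NEAT1 (ENSG00000245532, lincRNA) spans bases 65422774 to 65445540 of chromosome 11 (GRCh38, plus strand). It had counts of 9562 and 10385 (siControl) against 6858 and 5879 (siALKBH5), or 592.6 and 576.3 CPM against 366.6 and 356.7 CPM. Both knockdown libraries were well below both control libraries, and the level fell to 61.9% of the control. The means were 584.4 ± 11.5 CPM (SD, n = 2) and 361.7 ± 7.01 (SD, n = 2), and the log2 fold change was -0.69 (SE 0.025, adjusted p = 2.7e-21 by edgeR). It was -0.69 within replicate 1 and -0.69 within replicate 2. The counts are summed over the whole gene, so the short and the long form of NEAT1 cannot be told apart. Because the RNA was poly-A-selected, the fall is not shown to be one of the long form, on which paraspeckles are built.

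MALAT1 (ENSG00000251562, lincRNA), which lies on the same strand of chromosome 11 from 65497688 to 65506516, was not called. It had counts of 2601 and 3085 (siControl) against 3035 and 2847 (siALKBH5), which correspond to 161.2 and 171.2 CPM against 162.3 and 172.7 CPM. The groups overlapped, and the replicates of a group lay farther apart than the group means, 166.2 ± 7.08 CPM and 167.5 ± 7.42 (SD, n = 2). The log2 fold change was 0.009 (SE 0.038, adjusted p = 0.89 by edgeR), with a 95% interval from -0.068 to 0.086. Its sign changed without siControl replicate 1 (-0.030), without siALKBH5 replicate 2 (-0.033) and with library size only (-0.013), with no call in any of them. Poly-A selection recovers an RNA without a poly(A) tail incompletely, so the level of MALAT1 in these libraries is that of its captured part. The ratio of NEAT1 to MALAT1 counts, which needs no scaling, was 3.68 and 3.37 in siControl and 2.26 and 2.06 in siALKBH5. These ratios did not overlap, and with 2 libraries against 2 an exact two-sided permutation test cannot give a p under 0.333.

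**Figure D1:**
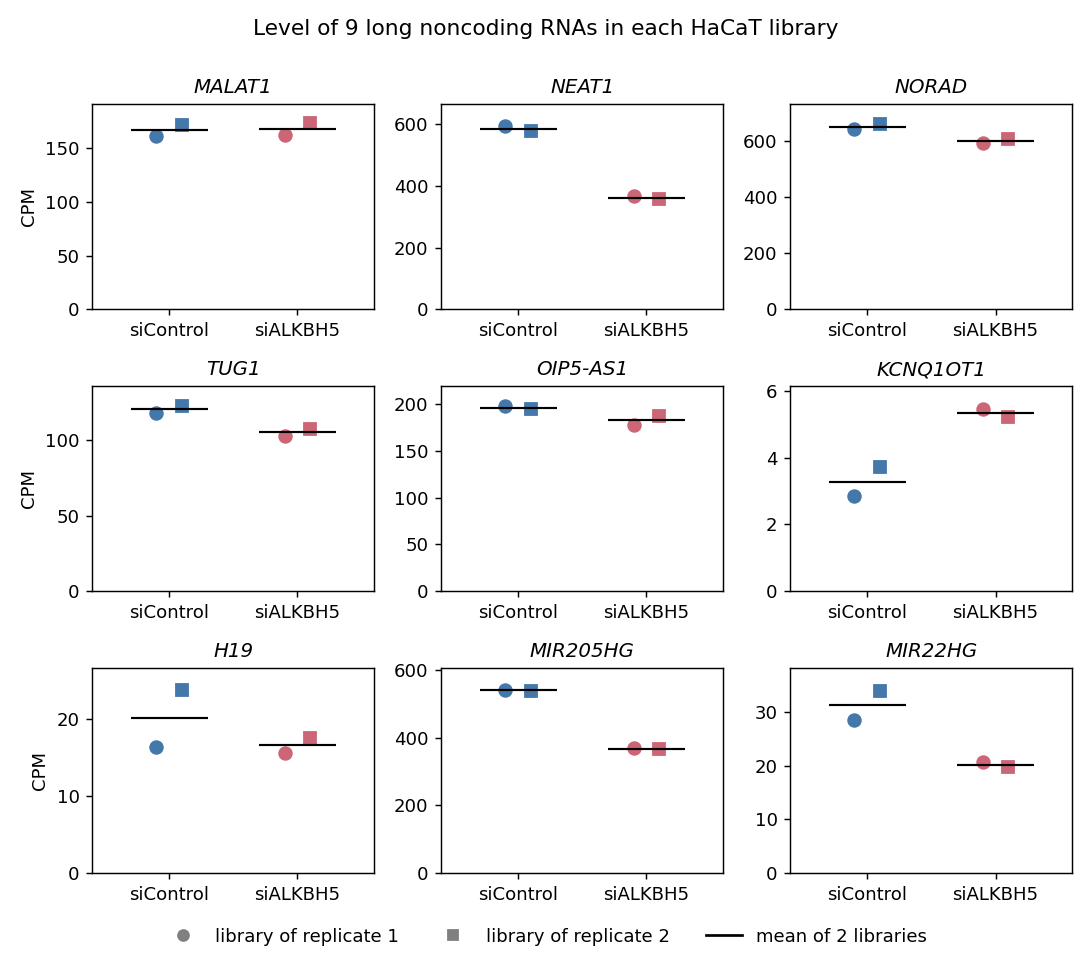
Level of each lncRNA in CPM (y axis, from 0) in the 2 siControl and 2 siALKBH5 libraries. Circles and squares are the libraries of replicate 1 and 2 and bars are group means. NEAT1, MIR205HG and MIR22HG sit lower in both siALKBH5 libraries, MALAT1 sits between 161.2 and 172.7 CPM in all 4 libraries, and the siControl libraries of H19 lie far apart.

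The microRNA host genes MIR205HG and MIR22HG both fell. MIR205HG (ENSG00000230937, processed transcript, plus strand of chromosome 1 from 209428820 to 209432838) had counts of 8733 and 9674 (siControl) against 6898 and 6039 (siALKBH5). These are 541.2 and 536.9 CPM against 368.8 and 366.4 CPM. The libraries of a group lay close together and the groups stood well apart, at 539.0 ± 3.06 CPM and 367.6 ± 1.66 (SD, n = 2). The level fell to 68.2% of the control, with a log2 fold change of -0.55 (SE 0.024, adjusted p = 6.3e-19 by edgeR). The tables also list the precursor gene MIR205, named after its values were seen, which shares 39 exonic bases with MIR205HG. MIR205 had counts of 60 and 48 (siControl) against 25 and 24 (siALKBH5) (log2 fold change -1.18, SE 0.29, adjusted p = 0.0016 by edgeR). Its listed length is 110 bases, and how reads in the shared bases were counted is not given in the sources used here. MIR205 is therefore not a measure apart from its host.

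MIR22HG (ENSG00000186594, lincRNA) lies on the minus strand of chromosome 17 from 1711493 to 1717174. It had counts of 461 and 613 (siControl) against 386 and 326 (siALKBH5), or 28.57 and 34.02 CPM against 20.64 and 19.78 CPM. The control libraries differed from each other, and both stayed above both knockdown libraries. The means were 31.3 ± 3.85 CPM and 20.2 ± 0.605 (SD, n = 2), which is 64.6% of the control (log2 fold change -0.63, SE 0.089, adjusted p = 6.2e-07 by edgeR). The log2 ratio was -0.47 within replicate 1 and -0.78 within replicate 2. The precursor genes MIR22 and MIR675 lie within exons of their hosts and were listed at 0 counts in all 4 libraries. The 0 sets no limit on their level, because how reads shared by both genes were counted is not given in the sources used here.

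NORAD, TUG1 and OIP5-AS1 were called lower with small changes. NORAD (ENSG00000260032, lincRNA, minus strand of chromosome 20 from 36045622 to 36050960) had counts of 10325 and 11887 (siControl) against 11049 and 10002 (siALKBH5), or 639.8 and 659.7 CPM against 590.7 and 606.9 CPM. The knockdown libraries were below the control libraries by a small margin, at 92.2% of the control (log2 fold change -0.12, SE 0.023, adjusted p = 0.00011 by edgeR). TUG1, named for its induction by taurine, has gene identifier ENSG00000253352 and lies on the plus strand of chromosome 22 from 30969245 to 30979395. It had counts of 1913 and 2211 (siControl) against 1928 and 1778 (siALKBH5), or 118.5 and 122.7 CPM against 103.1 and 107.9 CPM, at 87.4% of the control (log2 fold change -0.20, SE 0.042, adjusted p = 0.00032 by edgeR).

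OIP5-AS1 (ENSG00000247556, processed transcript), an RNA known to bind the RNA-binding protein HuR, lies on the plus strand of chromosome 15 from 41283990 to 41309737. It had counts of 3195 and 3495 (siControl) against 3328 and 3080 (siALKBH5), or 198.0 and 194.0 CPM against 177.9 and 186.9 CPM. The gap between the groups was about as wide as the spread within siALKBH5, and the log2 fold change was -0.10 (SE 0.034, adjusted p = 0.016 by edgeR). The call was lost without siControl replicate 1, at -0.087 (adjusted p = 0.12 by edgeR), and without siALKBH5 replicate 1, at -0.066 (adjusted p = 0.26 by edgeR). It was also lost with DESeq2 (adjusted p = 0.10).

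The imprinted KCNQ1OT1 was the only member called higher. KCNQ1OT1 (ENSG00000269821, antisense, minus strand of chromosome 11 from 2608328 to 2699994) had counts of 46 and 67 (siControl) against 102 and 86 (siALKBH5), or 2.851 and 3.718 CPM against 5.453 and 5.218 CPM. Both knockdown libraries were above both control libraries, and the level was 162% of the control (log2 fold change 0.69, SE 0.20, adjusted p = 0.0068 by edgeR). Its 95% interval ran from 0.28 to 1.11. The gene KCNQ1 overlaps it on the other strand, and the strand setting of the counting is not given in the sources used here. Reads from KCNQ1 may therefore be among its counts. Without siControl replicate 1 the log2 fold change was 0.52 and the call was lost (adjusted p = 0.084 by edgeR), as it was with DESeq2 (adjusted p = 0.063). The abundant label does not hold for this RNA, which ranked 318 by CPM among 14994 genes of a long noncoding biotype and lay above 27.3% of all tested genes.

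H19 (ENSG00000130600, processed transcript, minus strand of chromosome 11 from 1995176 to 2001470) was not called. It had counts of 265 and 429 (siControl) against 293 and 289 (siALKBH5), or 16.42 and 23.81 CPM against 15.66 and 17.54 CPM. The groups overlapped, and siControl replicate 2 stood above the other 3 libraries. The log2 fold change was -0.29 (SE 0.12, adjusted p = 0.058 by edgeR). It was 0.012 without siControl replicate 2 (adjusted p = 0.96 by edgeR), and -0.52 without siControl replicate 1 (adjusted p = 0.00021 by edgeR), and it was also called without siALKBH5 replicate 2 (-0.37, adjusted p = 0.011 by edgeR). With all 4 libraries it was called with the replicate block (-0.27, adjusted p = 0.021 by edgeR), with library size only (-0.31, adjusted p = 0.049 by edgeR) and with no filter (-0.28, adjusted p = 0.040 by edgeR).

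**Figure D2:**
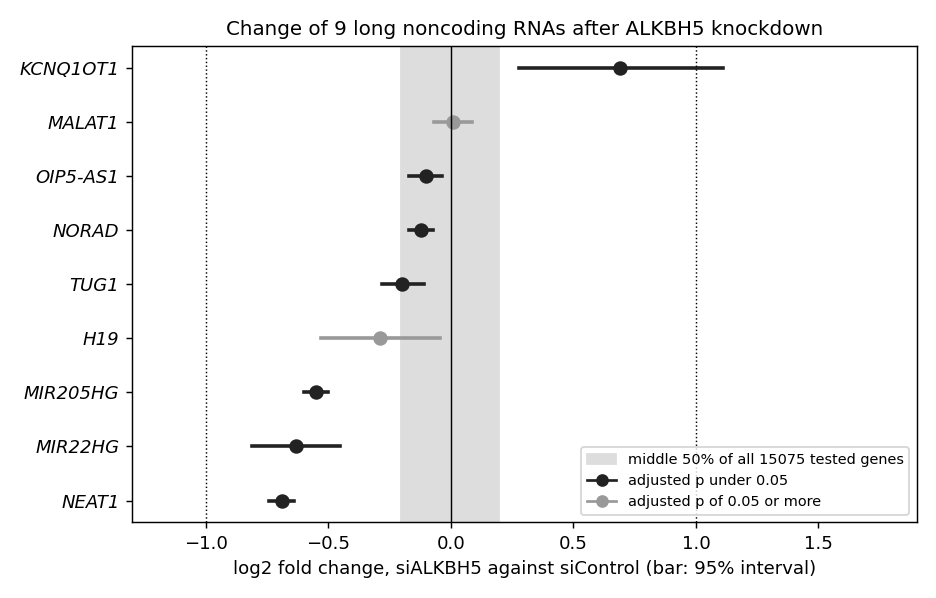
Log2 fold change of siALKBH5 against siControl (x axis) for each lncRNA (y axis), with bars for the 95% interval of edgeR's quasi-likelihood model. Dotted lines mark a change of 1, and the grey band holds the middle 50% of all 15075 tested genes. NEAT1, MIR22HG and MIR205HG lie between -0.69 and -0.55, and KCNQ1OT1 has the widest interval, from 0.28 to 1.11.

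All 9 lncRNAs passed the expression filter, and 6 were called lower, 1 higher and 2 were not called. Of the 15075 genes tested, 17.3% were called lower and 19.3% higher, 36.6% in all. Of the 9257 with a mean of at least 10 CPM, 22.5% were called lower and 26.1% higher, 48.6% in all. Among 139 tested genes of a long noncoding biotype with a mean of at least 10 CPM, which include 8 of the 9 members, 32.4% were called lower and 9.35% higher, 41.7% in all. Over all 1614 tested genes of a long noncoding biotype these shares were 9.36% and 5.33%, 14.7% in all. The groups did not overlap for 7 of the 9 lncRNAs, beside 66.3% of all tested genes and 50.1% of the long noncoding ones. Both knockdown libraries were lower for 6, beside 33.5% and 29.2%, and higher for 1, beside 32.8% and 20.9%. The median log2 fold change of the 9 lncRNAs was -0.20, that of the tested long noncoding genes -0.072 and that of all tested genes -0.0081. When the size of the log2 fold change also had to reach 1, 0 of the 9 were called by edgeR, beside 2.92% of all tested genes and 5.7% of the long noncoding ones, and 8 of the 9 had an unadjusted p under 0.05 by edgeR, beside 44.1% of all tested genes. With DESeq2 also 0 of the 9 passed these thresholds.

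The summed level of all genes of a long noncoding biotype was 10997 CPM in siControl and 10138 CPM in siALKBH5, a difference of -859 CPM. The 9 lncRNAs made up 21.0% of this sum in siControl and 18.0% in siALKBH5, and their own difference of -485 CPM was 56.5% of the whole. NEAT1 and MIR205HG alone accounted for -394 CPM. Among the 9, the share of NEAT1 went from 25.8% and 24.8% of their siControl counts to 20.2% and 19.4% in siALKBH5, and that of NORAD from 27.8% and 28.4% to 32.6% and 33.0%. MALAT1 took 7.01% and 7.37% in siControl and 8.96% and 9.39% in siALKBH5. The sum of the 9 was smaller in siALKBH5, so the larger shares of NORAD and MALAT1 are not higher levels. By level, NORAD was called lower and MALAT1 was not called. The mitochondrial share of the libraries, 10.2% in both siControl libraries and 9.63% and 9.64% in siALKBH5, moved with the groups too, and its part in these levels was not tested.

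Levels were compared between the lncRNAs as CPM per kilobase of the listed gene length, which equals the union of the annotated exons for all 9. In siControl the order, with the lower and the higher library, was MIR205HG (153 and 154), NORAD (120 and 124), NEAT1 (25.3 and 26.0), MALAT1 (18.3 and 19.4), OIP5-AS1 (15.3 and 15.6), TUG1 (11.7 and 12.1), MIR22HG (9.57 and 11.4), H19 (5.67 and 8.22) and KCNQ1OT1 (0.0311 and 0.0406). In siALKBH5 the leading pair changed places, with NORAD at 111 and 114 above MIR205HG at 104 and 105. The next pair changed places as well, with MALAT1 at 18.4 and 19.6 above NEAT1 at 15.7 and 16.1. The place of NEAT1 holds only for its whole length of 22767 bases, since the counts do not tell how much came from the shorter polyadenylated form. That of MALAT1 holds only for the part captured by poly-A selection. The other 5 kept their places. Neighbours in the order did not overlap between their 2 libraries in either group, although TUG1 and MIR22HG in siControl differed by a factor of 1.13, less than the spread of MIR22HG. The places depend on the length used. With the longest annotated transcript and the mean of the 4 libraries, OIP5-AS1 rose to the third place, at 21.4 CPM per kilobase, above NEAT1 at 20.8 and MALAT1 at 19.2, and 6 of the 9 kept their place.

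**Figure D3:**
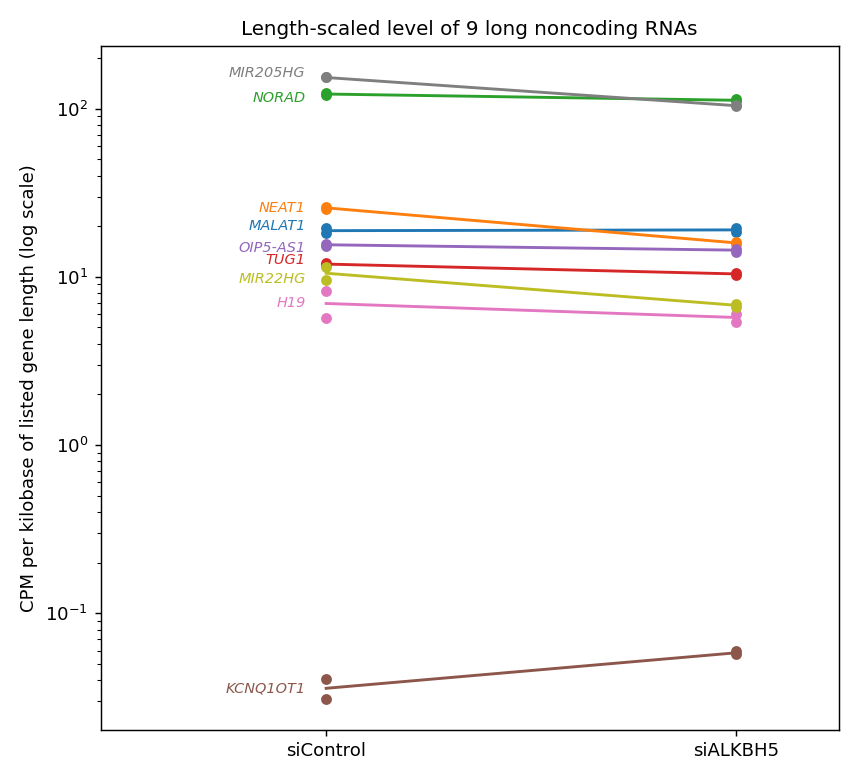
CPM per kilobase of listed gene length (y axis, log scale) of each lncRNA in siControl and siALKBH5. Points are the 2 libraries of a group and lines join the group means. The lines of MIR205HG and NORAD cross, as do those of NEAT1 and MALAT1, and KCNQ1OT1 lies far below the others.

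Among genes of the proteins that work with these RNAs, 19 tested entries encode paraspeckle proteins, of which 5 were called lower, 3 higher and 11 were not called, with a median log2 fold change of -0.0087. The called share was 42.1%, beside 36.6% of all tested genes and 48.6% of those with a mean of at least 10 CPM. Of the core proteins that bind NEAT1, NONO was at 0.052 (SE 0.025, adjusted p = 0.11 by edgeR), PSPC1 at 0.084 (SE 0.064, adjusted p = 0.33 by edgeR) and SFPQ at -0.080 (SE 0.030, adjusted p = 0.036 by edgeR). The largest called changes were RBM14 at 0.39, SMARCA4 at 0.24, HNRNPK at -0.20 and HNRNPH3 at -0.18. Each of these was smaller in size than the change of NEAT1, whose log2 fold change was -0.69. The number called lower was 3 without siControl replicate 1, 2 without siControl replicate 2 and 2 without siALKBH5 replicate 2.

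Of the 10 nuclear speckle proteins, 3 were called higher and 2 lower (median 0.0308). The called share was 50%, beside 36.6% of all tested genes and 48.6% of those with a mean of at least 10 CPM. The largest called changes were SRSF3, a splicing factor, at 0.30 and RBM25 at -0.21, and with DESeq2 1 was called lower. RNase P, which makes the end of MALAT1, was counted by the genes of its subunits, together with ELAC2, which is RNase Z. Of 10 genes tested, 3 were called higher and 7 were not called. The share called higher was 30%, beside 19.3% of all tested genes and 26.1% of those with a mean of at least 10 CPM. POP1 was at 0.54, POP7 at 0.32 and ELAC2 at 0.16, and with DESeq2 2 were called higher. POP1 had counts of 174 and 181 (siControl) against 296 and 238 (siALKBH5).

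The binding partners of the other lncRNAs included 5 called higher and 1 lower of 11 tested (median 0.0452). These are 45.5% and 9.09%, beside 19.3% and 17.3% of all tested genes and 26.1% and 22.5% of those with a mean of at least 10 CPM. PUM2, a Pumilio protein bound by NORAD, was at -0.20 (SE 0.039, adjusted p = 0.00013 by edgeR). ELAVL1, which encodes HuR, was at 0.19 (adjusted p = 0.0085 by edgeR), KHDRBS1 at 0.17 and EZH2, the methyltransferase of the Polycomb complex PRC2, at 0.53 (adjusted p = 2.9e-05 by edgeR). The number called higher was 3 without siControl replicate 1 and 3 without siControl replicate 2.

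Among 10 tested entries for imprinted genes and neighbours of H19 and KCNQ1OT1 at 11p15.5, 3 were called higher and 2 lower (median 0.0858), or 30% and 20% beside 19.3% and 17.3% of all tested genes. SLC22A18 was at 0.43 (adjusted p = 2.0e-06 by edgeR), OSBPL5 at 0.35, TSSC4 at -0.25 and MRPL23 at -0.24. CDKN1C, a cell cycle inhibitor of the domain that KCNQ1OT1 silences, was at -0.049 (adjusted p = 0.83 by edgeR) and had counts of 139 and 165 (siControl) against 169 and 134 (siALKBH5). IGF2, the growth factor gene that shares its enhancers with H19, is listed as 2 entries, each with 0 counts in all 4 libraries. How reads that fit both entries were counted is not given in the sources used here, so the 0 sets no limit on its level. The number called lower was 1 with each single library left out.

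Of 12 other described lncRNAs tested, 2 were called higher, 2 lower and 8 were not called (median 0.16), a called share of 33.3% beside 36.6% of all tested genes and 14.7% of the long noncoding ones. TINCR, an RNA of keratinocyte differentiation, was higher, with counts of 1207 and 1259 (siControl) against 1944 and 1570 (siALKBH5) (log2 fold change 0.47, adjusted p = 2.5e-09 by edgeR). UCA1 was at 0.25, FTX at -0.61 and EPB41L4A-AS1 at -0.42. Of the 62 genes named as microRNA hosts (MIR...HG), 22 were tested, MIR205HG and MIR22HG among them, and 6 were called lower and 1 higher (median -0.27). These are 27.3% and 4.55%, beside 17.3% and 19.3% of all tested genes and 9.36% and 5.33% of the long noncoding ones. Beside both members, MIRLET7BHG at -1.17, MIR200CHG at -0.91, MIR210HG at -0.73 and MIR222HG at -0.51 were called lower, and MIR100HG at 0.97 was called higher. MIR200CHG rested on counts of 37 and 79 (siControl) against 30 and 33 (siALKBH5).

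**Figure D4:**
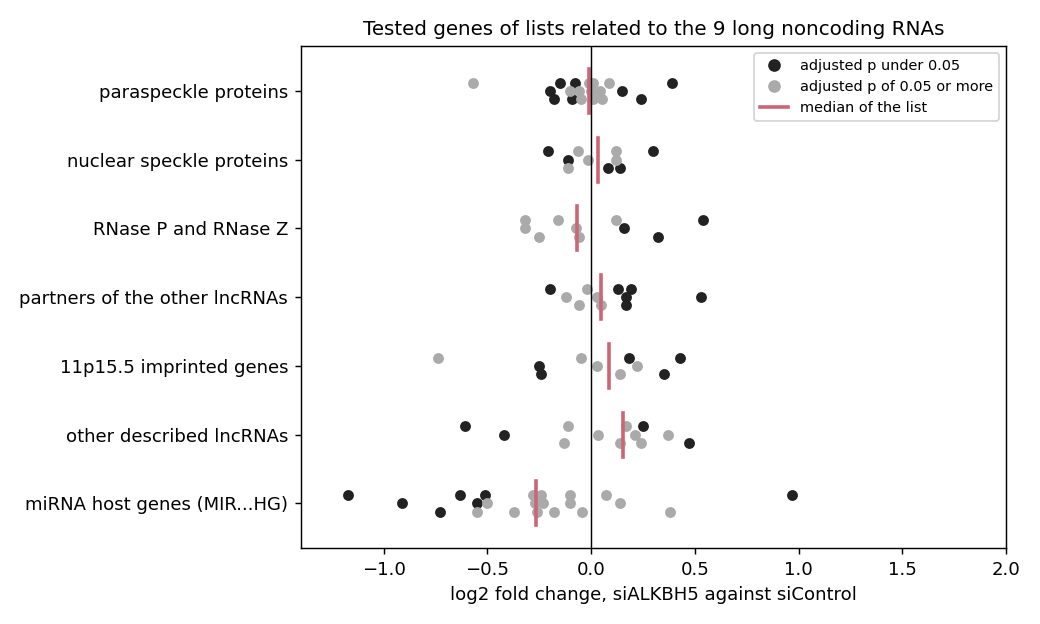
Log2 fold change of siALKBH5 against siControl (x axis) for the tested genes of 7 lists (y axis). Each point is a gene, black where it was called and grey where it was not, and red bars are medians of the lists. The medians lie between -0.27 for microRNA hosts and 0.16 for other described lncRNAs.

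Of 41 tested genes within 100 kb of a member, 8 were called higher and 11 lower, with a median of 0.0125. These are 19.5% and 26.8%, beside 19.3% and 17.3% of all tested genes. With DESeq2 4 were called lower, and with edgeR the number called lower was 4 without siControl replicate 1 and 5 without siALKBH5 replicate 2. FRMD8, at a distance of 9249 bases from NEAT1, was at -0.25 (SE 0.046, adjusted p = 4.9e-05 by edgeR). OIP5 lies on the opposite strand to OIP5-AS1, shares 470 exonic bases with it and was called higher. OIP5 had counts of 175 and 197 (siControl) against 331 and 281 (siALKBH5) (log2 fold change 0.67, SE 0.114, adjusted p = 1.3e-05 by edgeR). The values of OIP5 and OIP5-AS1 in the shared bases are uncertain, because the strand setting of the counting is not given in the sources used here.

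The other nearest protein-coding neighbours were called for NORAD, OIP5-AS1, H19 and on 1 side of TUG1. WDR81, TLCD2 and SERPINF2 beside MIR22HG were at -0.015, 0.072 and -0.22 (adjusted p = 0.89, 0.22 and 0.27 by edgeR). MORC2, at 947 bases from TUG1, was at 0.11 (adjusted p = 0.36 by edgeR), and SMTN on the other side at 0.57 (adjusted p = 0.00074 by edgeR). CHP1 and NUSAP1 beside OIP5-AS1 were at 0.18 and 0.40, and SCAND1 and EPB41L1 beside NORAD at -0.17 and -0.14, all 4 of them called. KCNQ1, which overlaps KCNQ1OT1 on the other strand, had between 11 and 23 counts (log2 fold change 0.22, adjusted p = 0.75 by edgeR). For MIR205HG no tested protein-coding gene lay within 100 kb. The exons of the members overlapped those of other genes over 0% (NORAD) to 14.4% (TUG1) of their length, and reads in such bases may have been counted for either gene or for none.

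The genes most like NEAT1 and MALAT1 were sought by the distance of log2 CPM profiles over the 4 libraries, each centred on its own mean, among 9257 tested genes with a mean of at least 10 CPM. For NEAT1 the nearest were ZNF704 (distance 0.0387, log2 fold change -0.71), TXNIP (0.0391, -0.67) and WNT11 (0.0409, -0.66), and 17 genes lay within a distance of 0.1. For MALAT1 the nearest were HOXB7 (0.0135), LZIC (0.0155) and TGS1 (0.0157), all with log2 fold changes between -0.004 and 0.006, and 903 genes lay within 0.1. With 4 libraries these distances describe the profiles and carry no test.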

How the data were processed

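Poly-A-selected RNA of HaCaT cells was sequenced by the authors, and the submitters' processing notes name CASAVA, HISAT2 2.0.5, featureCounts 1.5.0-p3, DESeq2 1.20.0 and hg38. The authors deposited 1 table per replicate with raw counts per gene, which were used here. The deposited FPKM, scaled within each table, were not used. Columns of log2 fold change and of p-value, deposited as the authors' comparison of 1 library with 1, were left out. All 58735 identifiers are in GENCODE 29 (GRCh38).

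The main test was the quasi-likelihood test of edgeR 4.0.16 (R 4.3.3) on the counts of all genes, with TMM scaling, the filterByExpr filter, no covariates and Benjamini-Hochberg adjustment over 15075 genes. The common dispersion corresponds to a biological coefficient of variation of 0.0253. Duplicates differed by more than counting noise (chi-square per degree of freedom 1.74 in siControl and 1.85 in siALKBH5, against 18.2 to 20.3 between groups). Alternatives were DESeq2 1.42.0, a replicate block, 2 other scalings (library size only or DESeq2 size factors), no filter or a minimum mean of 10 counts, totals without the 9 lncRNAs, the longest transcript length in place of the listed one, an unadjusted p and each library left out. Steps were tested on simulated data. In each list, up to 4 called genes with the largest change were named, beside the nearest protein-coding neighbours within 100 kb, the 3 genes nearest to NEAT1 and to MALAT1 by profile, and NONO, SFPQ, PSPC1, ELAC2, PUM2, ELAVL1, IGF2, CDKN1C and TINCR. Members and lists were chosen with earlier results of these data known. Some genes that this rule names are not reported here. MIR222HG and MIR205 were named after their values were seen.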

Additional observations from a re-analysis of the deposited data

How the results depend on the processing

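NEAT1, NORAD, TUG1, MIR205HG and MIR22HG kept their direction and their call under all 11 alternatives run on them. With each library left out in turn, NEAT1 ranged from -0.71 to -0.67, MIR205HG from -0.56 to -0.54, MIR22HG from -0.75 to -0.50, NORAD from -0.14 to -0.10 and TUG1 from -0.23 to -0.16, and the other lncRNAs from -0.033 to 0.056 (MALAT1), -0.14 to -0.066 (OIP5-AS1), 0.52 to 0.90 (KCNQ1OT1) and -0.52 to 0.012 (H19). MALAT1 was at -0.013 with library size only, and it was not called in any fit. With DESeq2 the log2 fold changes of OIP5-AS1 (-0.10) and KCNQ1OT1 (0.70) were no longer called. H19 was called at -0.31 with library size only, at -0.28 with no filter and at -0.27 with the replicate block. No other member changed its call under the block, and the libraries share only a number, so the block was not taken as a pairing. The cause of these changes was not tested.

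The number of members called lower was between 5 and 7 over all alternatives. The number called higher was 0 with DESeq2 and from 0 to 1 with single libraries left out. With DESeq2 the numbers called lower were 1 paraspeckle protein, 1 nuclear speckle protein, 0 imprinted genes, 4 genes within 100 kb and 52 of a long noncoding biotype, and those called higher were 3 partners and 23 of a long noncoding biotype. These compare with 5, 2, 2, 11 and 151 lower and 5 and 86 higher. With no filter 3 paraspeckle proteins and 1 imprinted gene were called lower, and 1 RNase P subunit was called lower with library size only and with the replicate block. Over all genes DESeq2 called 1431 lower, against 2610. With single libraries left out, the numbers called lower were 2 to 4 paraspeckle proteins, 1 to 3 speckle proteins, 1 to 1 imprinted genes and 4 to 9 genes within 100 kb, and those called higher 1 to 3 RNase P and Z genes and 3 to 4 partners. In all, 335 of 377 values kept both their direction and their side of the threshold or, for counts, stayed within 1.5 times the main count. KCNQ1OT1, with 46 to 102 counts, is the member that depth limits most.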
